A study of Arabidopsis thaliana with 12 samples.

Results

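The transcripts of 2 nuclear genes of plastid sugar phosphate metabolism were described: PRK (AT1G32060), which encodes phosphoribulokinase, and AT5G17630, which encodes the xylulose 5-phosphate translocator of the plastid envelope. They are 2 of 689 genes that had a probe of their own on an array of 3439 probes, and each was named on 1 probe and on no probe shared with another gene. The probe of each gene was chosen by its mean intensity over the 12 columns, the brightest standing for the gene, and with 1 probe each this left no choice. Both genes were taken up with their lower values in prors1 already known, so the difference between prors1 and WT is given below as a description of these arrays and not as independent evidence.

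The plants in question were Arabidopsis thaliana titled prors1, a mutant that the labels describe as without prolyl-tRNA synthetase, the enzyme that charges transfer RNA with proline. They were set against plants titled WT1, called WT here as in their source label, of ecotype Columbia 0, and both groups had spent a night in darkness before total RNA was taken. The 12 titles alone separate the groups, because the source label reads WT for the prors1 samples too. The labels give no allele of prors1, no tissue and no age.

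Phosphoribulokinase uses ATP to convert ribulose 5-phosphate into ribulose 1,5-bisphosphate, the molecule to which Rubisco adds carbon dioxide, and it has no other place in metabolism than the Calvin-Benson cycle. In the light the enzyme is switched on by reduced thioredoxins, and in the dark it is oxidised and held inactive in a complex with glyceraldehyde 3-phosphate dehydrogenase and the small protein CP12. The translocator belongs to the family of plastid phosphate translocators and exchanges xylulose 5-phosphate or triose phosphate for inorganic phosphate across the inner envelope. It joins the pentose phosphates of the cytosol to the pool from which phosphoribulokinase draws its substrate inside the plastid.

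Each group had 6 columns of values, of which columns 1 and 2, 3 and 4, and 5 and 6 behaved as repeated readings and were averaged into what is called 3 arrays per group. No label states this pairing: it was read from how alike the columns are, and every SE and p below rests on it. With the 6 columns taken as separate samples the adjusted p from limma was 0.000472 for PRK, against 0.0442 with 3 arrays. Total intensity ran from 2632 to 3456 per prors1 column and from 2312 to 2840 per WT column. The median of the values above 0 was 0.407 to 0.520 in prors1 and 0.224 to 0.289 in WT, so a typical probe was brighter in prors1 on the deposited scale. PRORS1 itself was named on 0 probes, and 0 of 27 marker genes for root, pollen, seed, leaf and flower had a probe of their own, so the titles were not checked against the mutated gene, nor the tissue against those markers. Genes of the photosynthetic apparatus outside that list were measured, among them LHB1B2 of the light-harvesting antenna with a mean intensity of 19.4 over the 12 columns and PSAN of photosystem I with 3.25, both named after their values were seen. Nothing in the labels states that the arrays came from separate plants, and p-values therefore reflect array-to-array spread that may be technical. In RNA of whole samples, fewer cells of a type and less RNA per cell cannot be told apart.

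PRK was a bright probe in both groups and lower in prors1. Its deposited intensity was 0.850 and 0.904 on prors1 array 1, 1.10 and 1.03 on array 2, and 0.785 and 0.836 on array 3. On the WT arrays it was 1.06 and 1.13, 0.993 and 1.22, and 1.15 and 1.19. The array means did not overlap between the groups, but single columns did: both columns of prors1 array 2 read above WT column 3. PRK averaged 0.919 ± 0.13 in prors1 and 1.13 ± 0.039 in WT (SD, n = 3 arrays each), so that the prors1 mean was 81.6% of the WT mean. The WT mean exceeded the prors1 mean 1.22-fold, while the columns of WT array 2 differed from each other 1.23-fold.

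AT5G17630 was a dim probe that came close to the floor of the scale in prors1. Its deposited intensity was 0.0757 and 0.0656 on prors1 array 1, 0.0901 and 0.0425 on array 2, and 0.0924 and 0.0939 on array 3. On the WT arrays it was 0.147 and 0.121, 0.223 and 0.306, and 0.0916 and 0.131. WT array 2 stood well above the other WT arrays, and WT column 5 lay slightly below both columns of prors1 array 3. The mean was 0.0767 ± 0.014 in prors1 and 0.170 ± 0.083 in WT (SD, n = 3 arrays each), and the prors1 mean was 45.1% of the WT mean. This difference of 2.22-fold, WT over prors1, was little wider than the 2.12-fold gap between the columns of prors1 array 2, whereas the columns of prors1 array 3 differed only 1.02-fold. On deposited intensity, both genes had all 3 prors1 arrays below all 3 WT arrays, as did 5.47% of the tested probes, and neither had all 6 prors1 columns below all 6 WT columns, as 3.54% of the tested probes had.

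**Figure D1:**
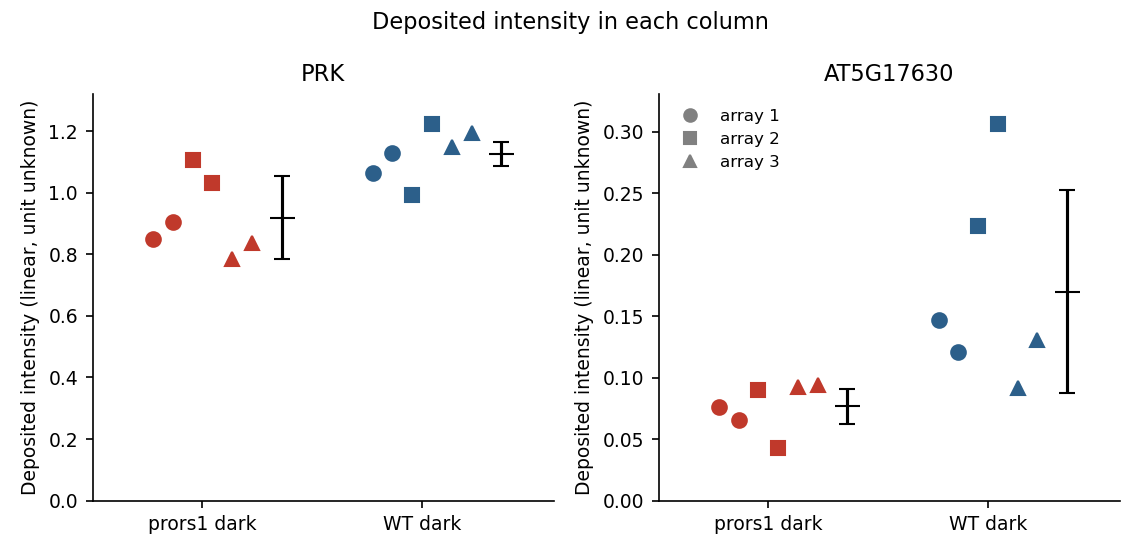
Deposited intensity (linear scale of unknown unit) of PRK, left, and AT5G17630, right, in the 6 prors1 and 6 WT columns, with the shape giving the array and the black mark the mean ± SD of 3 array means. PRK lay between 0.785 and 1.10 in prors1 and between 0.993 and 1.22 in WT, and AT5G17630 between 0.0425 and 0.0939 in prors1 and between 0.0916 and 0.306 in WT, so the columns overlapped slightly for each gene.

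The place of a probe within its own column needs no scaling between columns, but it depends on the other probes of that column. A typical probe was brighter in prors1 as deposited, so a probe of unchanged intensity would stand lower there. PRK stood at the 80.2nd to 84.3rd percentile of the prors1 columns and at the 88.2nd to 93.1st of the WT columns. Over arrays this was 82.8 ± 1.2 in prors1 and 91.4 ± 1.9 in WT (SD, n = 3 each), a difference of -8.61 percentile points. AT5G17630 stood at 14.8 to 17.2 in the prors1 columns and at 26.1 to 59.5 in the WT columns, with array means of 15.8 ± 0.67 in prors1 and 40.6 ± 13 in WT. The columns of the groups did not overlap on this measure for either gene, and 16.5% of the tested probes likewise had all prors1 columns below all WT columns.

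Much of the prors1 range below AT5G17630 was made up of probes listed at 0, which numbered 412 to 474 per prors1 column and 423 to 519 per WT column. Of the values above 0, only 1.45% to 4.86% were lower than that of AT5G17630 in the prors1 columns, against 15.2% to 52.4% in the WT columns. The translocator probe was thus among the dimmest of the measured values in every prors1 column, where a log2 value moves most for a small change in intensity. For PRK the shares were 77.1% to 81.9% in prors1 and 86.0% to 92.1% in WT, far from the floor in both groups.

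**Figure D2:**
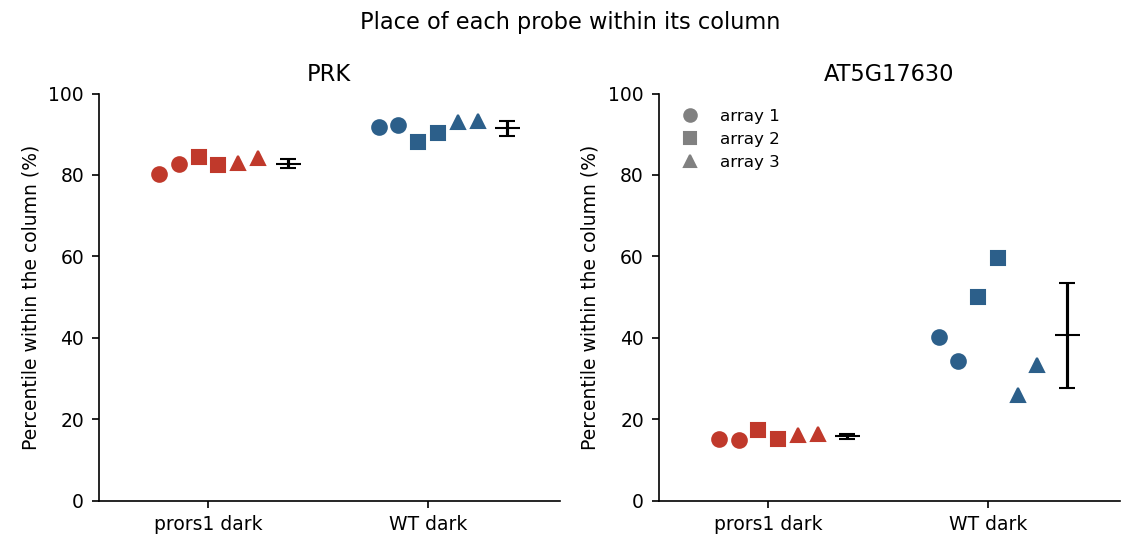
Percentile of the PRK probe, left, and the AT5G17630 probe, right, among all 3439 probes of the same column (axis from 0 to 100%), for 6 prors1 and 6 WT columns, with the mean ± SD of 3 arrays in black. PRK kept to 80.2 to 84.3 in prors1 and 88.2 to 93.1 in WT, while AT5G17630 was tightly grouped at 14.8 to 17.2 in prors1 and spread from 26.1 to 59.5 in WT.

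After log2 transformation and quantile normalization, which gives all columns the same distribution, a limma model was fitted to the 2908 probes measured above 0 in at least 4 of 6 columns of each group. The log2 difference of AT5G17630, prors1 minus WT, was -2.43 ± 0.36 (SE, n = 3 arrays in each group, limma adjusted p = 0.00493), with a 95% interval of the difference from -3.25 to -1.60. That of PRK was -0.75 ± 0.23 (limma adjusted p = 0.0442), with an interval from -1.28 to -0.23. Both genes thus lay on the called side of the threshold of 0.05, where 13.5% of the tested probes were called lower in prors1 and 26.3% in either direction. Normalized log2 values of AT5G17630 were -5.07, -4.76 and -4.05 on the prors1 arrays and -2.33, -1.64 and -2.63 on the WT arrays. Those of PRK were -0.52, -0.41 and -0.39 on the prors1 arrays and 0.35, 0.04 and 0.55 on the WT arrays. On this scale the prors1 arrays lay close together for PRK, and the WT arrays were more spread. The deposited values had the reverse order, with an SD of 0.13 in prors1 and 0.039 in WT.

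The size of both differences depended on how the columns were brought to one scale. On the values as deposited, AT5G17630 had a log2 difference of -1.08 ± 0.37 (adjusted p = 0.0386) and was called lower, as were 2.82% of the tested probes. PRK had -0.30 ± 0.26 there and was not called (adjusted p = 0.359). The median over all tested probes was 0.77 on that scale and -0.06 after quantile normalization, so the deposited values put most probes higher in prors1. Median scaling gave -1.20 ± 0.23 for PRK and -1.98 ± 0.35 for AT5G17630, with a median over all probes of -0.13, and called both lower, as it did 17.7% of the tested probes. With a pseudocount of 0.0595 added to each value, the log2 difference of AT5G17630, on the log2(value + pseudocount) scale, was -1.50 ± 0.24. Under cyclic loess the call of PRK ended (-0.60 ± 0.23, adjusted p = 0.0988), while AT5G17630 had -1.99 ± 0.37.

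The deposited shift was not alike for dim and bright probes. Among 8 classes of tested probes ordered by mean intensity, AT5G17630 fell in the dimmest, whose 364 probes had a median log2 difference of 0.70 as deposited and -0.50 after quantile normalization. PRK fell in the second brightest class, with medians of 0.65 and 0.08, and its mean of 1.02 lay near the upper bound of that class at 1.04. In the brightest class, which begins at 1.05, the medians were 0.02 as deposited and -0.19 after quantile normalization. The 68 tested probes within 50 probe numbers of PRK had a median of -0.21 after quantile normalization, and the 58 around AT5G17630 had 0.12. With a running median along the probe numbers taken off, PRK had -0.85 ± 0.23 and AT5G17630 -2.55 ± 0.37.

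**Figure D3:**
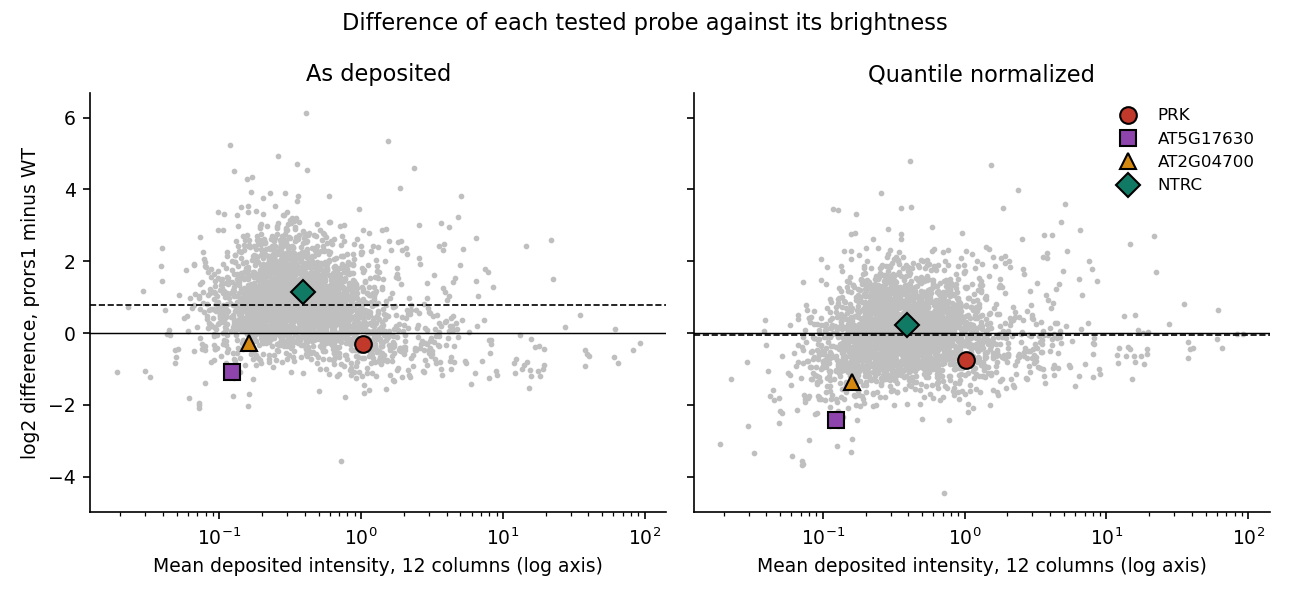
log2 difference, prors1 minus WT, of each of 2908 tested probes (grey) against its mean deposited intensity over 12 columns (log axis), as deposited, left, and after quantile normalization, right, with the median of all probes dashed. AT5G17630 lies at the dim end and far below the dashed line in both panels (-1.08 and -2.43), and PRK lies at the bright end and less far below it (-0.30 and -0.75).

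AT5G17630 kept its direction and its call without any 1 array, with log2 differences from -2.80 without prors1 array 3 to -2.08 without WT array 2, the array with its highest value. PRK also kept its direction, from -0.85 without WT array 2 to -0.60 without WT array 3. The PRK call ended without prors1 array 1, 2 or 3 (adjusted p = 0.0961, 0.0947 and 0.0808), without WT array 1 or 3 (0.108 and 0.136), and without WT column 4 or 5 (0.0641 and 0.0515).

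**Figure D4:**
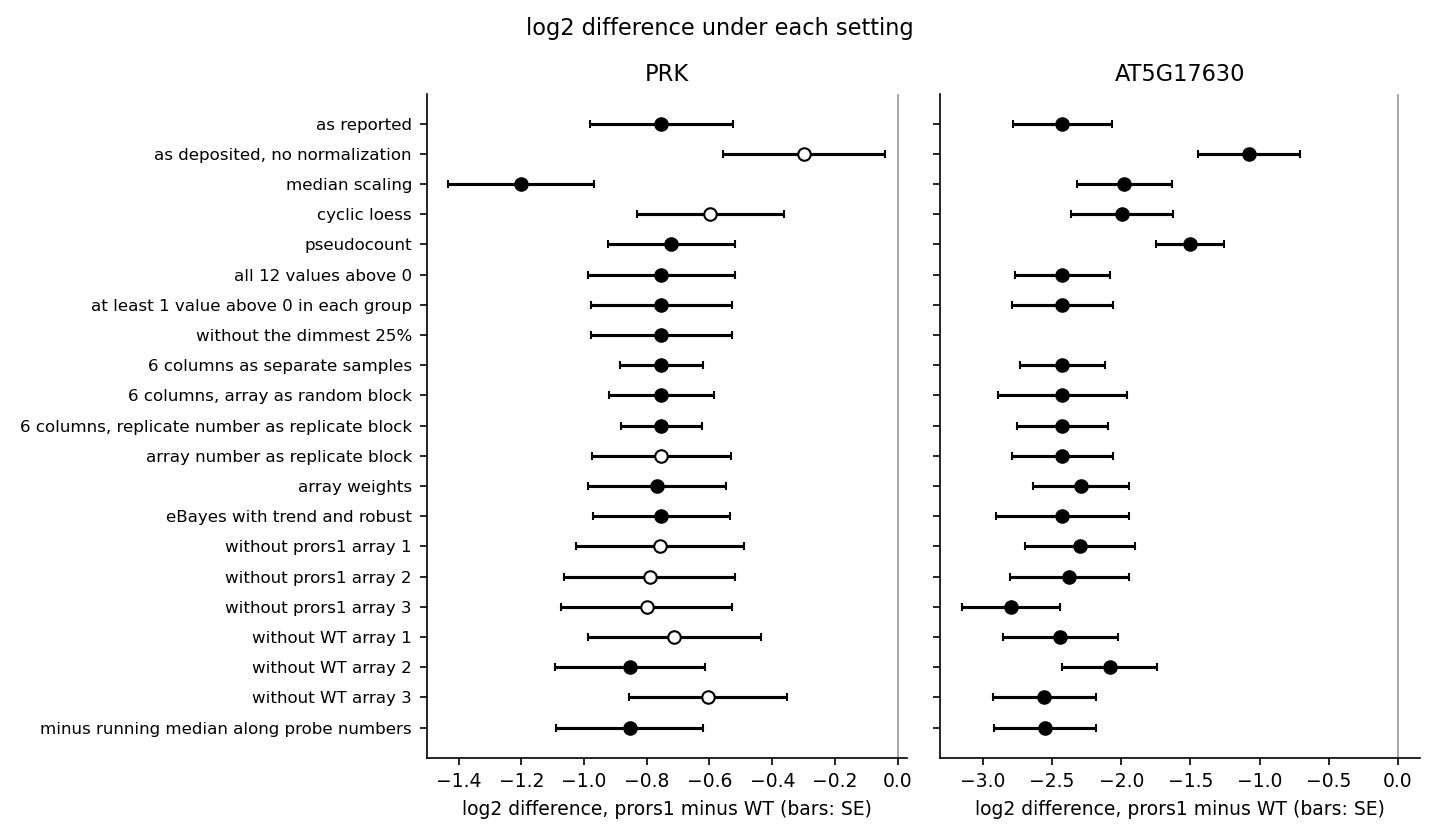
log2 difference, prors1 minus WT, ± SE for PRK, left, and AT5G17630, right, under each setting except those that leave out a single column. Marks are filled where the adjusted p was under 0.05 and open otherwise. The values of PRK run from -1.20 to -0.30 and those of AT5G17630 from -2.80 to -1.08, all below 0. AT5G17630 has no value without the dimmest 25% of probes, to which it belongs.

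The metabolic surroundings of the pair were little covered by probes that name a single gene. Of 109 genes in 7 lists (Calvin-Benson cycle, plastid phosphate translocators, other envelope transporters, oxidative pentose phosphate pathway, plastid thioredoxins, photorespiration and starch synthesis), 7 had such a probe and 4 were tested, PRK and AT5G17630 among them. Of the 2 others, 1 was called lower in prors1, against 13.5% of all tested probes, and 0 were called higher. PRK was the only tested gene of the 25 listed for the Calvin-Benson cycle, and AT5G17630 the only one of the 6 phosphate translocators, so the behaviour of either group as a whole was not analysed here.

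Both other tested genes belong to the thioredoxin system through which the cycle is switched on. AT2G04700 encodes the catalytic subunit of ferredoxin-thioredoxin reductase, which passes electrons from ferredoxin to the thioredoxins that activate phosphoribulokinase. Its deposited intensity was 0.146, 0.216, 0.0954, 0.0950, 0.150 and 0.170 in prors1 columns 1 to 6, against 0.186, 0.182, 0.116, 0.102, 0.275 and 0.202 in the WT columns. The groups overlapped widely, and array 2 was the lowest of its group in both. After quantile normalization AT2G04700 was lower in prors1, with a log2 difference of -1.37 ± 0.39 (limma adjusted p = 0.0353). As deposited it had -0.27 ± 0.37 (adjusted p = 0.573) and under median scaling -1.17 ± 0.43 (adjusted p = 0.0758). Its call also ended without prors1 array 1 or 2 (adjusted p = 0.0753 and 0.112), WT array 1 or 3 (0.0871 and 0.0985), or prors1 column 1 (0.0575). With the array number as a block it was called (-1.37 ± 0.21, adjusted p = 0.0125).

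NTRC (AT2G41680), the plastid enzyme that joins a thioredoxin to its own NADPH-dependent reductase and so works without light, read 0.462 to 0.616 in the prors1 columns and 0.157 to 0.297 in the WT columns. The columns did not overlap on the deposited scale, where its log2 difference was 1.14 ± 0.27 (limma adjusted p = 0.00935) and 43% of the tested probes were called higher. After quantile normalization it was 0.24 ± 0.25 (limma adjusted p = 0.516), with an interval from -0.34 to 0.82. The remaining 3 list genes with a probe were not tested. SBPASE (AT3G55800), the bisphosphatase that precedes phosphoribulokinase in the regeneration of its substrate, was listed at 0 in all prors1 columns and in 5 of 6 WT columns. AT5G44520 was listed at 0 in all prors1 columns and in 4 WT columns, and AT1G12230 in all 12 columns. Both stood in the list of the oxidative pentose phosphate pathway.

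Across the 6 arrays the profile of each gene was set against those of 541 other genes measured above 0 in all 12 columns, as the root mean square (RMS) difference of normalized log2 values after each gene's own mean was taken off. The group difference is part of such a profile, so genes found this way also differ between the groups by choice. For PRK the nearest were AT2G38550 (RMS 0.11), AT5G58410 (0.11), AT2G18920 (0.13), AT4G24840 (0.14) and AT1G64430 (0.14), against a median of 0.52 over the 541 genes. All 5 had normalized log2 differences between -0.88 and -0.64, close to that of PRK. Like PRK they were higher on WT array 3 than on WT array 2. The choice by profile favours this array pattern too, and its share among the 541 genes was not counted. Their deposited log2 differences were mixed, from -0.40 for AT2G38550 to 0.40 for AT4G24840.

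For AT5G17630 the nearest genes were less close in log2 units, but its own profile was also larger. The RMS of the profile itself was 1.28 for AT5G17630 and 0.41 for PRK. AT4G24160 had an RMS of 0.55, AT3G16760 of 0.58, AT3G47100 of 0.60, AT1G51080 of 0.61 and AT4G24090 of 0.70, against a median of 1.30 over the 541 genes. Their normalized log2 differences ran from -1.78 to -1.33 and were all smaller in size than that of AT5G17630, and their deposited ones from -0.97 to -0.54 were all below 0. The peak of AT5G17630 on WT array 2 was not matched in height by any of the 5. PRK and AT5G17630 lay 0.98 apart, farther than the 5 nearest genes of either. Profiles of such unlike size lie far apart on this measure whatever their shape. The distance therefore does not tell whether the 2 profiles are alike in shape.

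**Figure D5:**
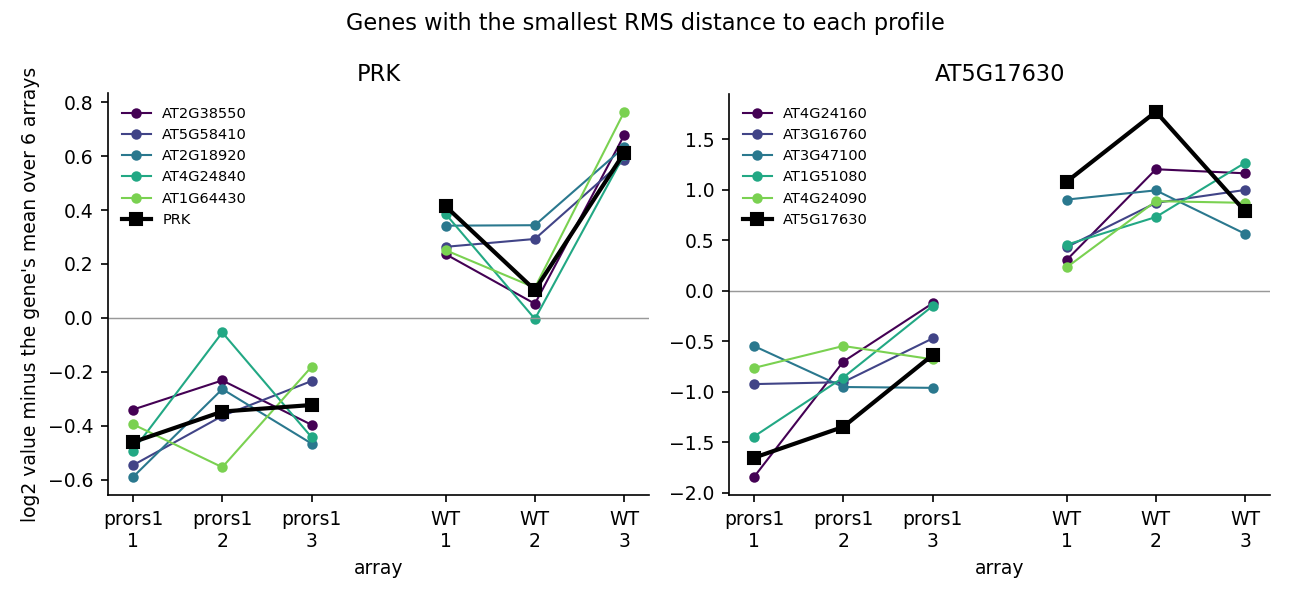
Normalized log2 value minus the gene's own mean over 6 arrays (3 prors1, then 3 WT) for PRK, left, and AT5G17630, right, in black, with the 5 genes of smallest RMS difference in colour; lines join arrays of a group for legibility and stand for no order. PRK is followed within an RMS of 0.11 to 0.14, and AT5G17630, whose own profile is larger, within 0.55 to 0.70. The black line of AT5G17630 is highest on WT array 2.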

How the data were processed

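The authors deposited 1 linear intensity per probe and column, between a floor of 0 and a ceiling of 100. How they scanned, background-corrected and scaled the arrays was not given in the sources used here. All 12 columns were matched to samples by identifier, leaving 0 unused. Values of 0 were treated as missing, the rest log2 transformed, quantile normalized and fitted with group as the only term in limma 3.58.1 (lmFit, eBayes, two-sided) under R 4.3.3, with Benjamini-Hochberg adjustment over 2908 probes. Columns of 1 array correlated across probes at 0.957 to 0.965 in prors1 and 0.901 to 0.921 in WT (columns of different arrays at 0.883 to 0.906 in prors1 and 0.843 to 0.883 in WT), and were averaged. The model fit was tested on simulated array values with known changes. Normalization and the averaging of columns were not part of that test. Probes were named through the platform annotation of 2016 and the TAIR 10.1 gene table: 692 of 3439 had 1 symbol (690 matched), 870 several and 1877 none listed. Without a genome build for the probes, no coordinates are given. Members, lists, settings and the naming rule (both genes, every list gene with a probe of its own, and the 5 nearest profiles of each) were chosen with earlier results of these data known. The number of arrays limits the precision.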

Additional observations from a re-analysis of the deposited data

Results flagged for a closer look

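Of the 10 sets of 6 columns examined, those of PRK, AT5G17630, AT2G04700 and NTRC had no column far from the others. A column stood far apart for SBPASE in WT, where the gap took up the whole range (1), because WT column 5 read 0.0128 and the other 5 were listed at 0. AT5G44520 in WT had a gap of 0.925 of its range, with 0.0155 in WT column 5, 0.00116 in column 6 and 0 elsewhere. Both readings lie at the floor. Chance alone sets apart about 1 set in 20, but that rate does not hold where most columns are listed at 0, as in these WT sets.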

How the results depend on the processing

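PRK and AT5G17630 stayed lower in prors1 under all settings run, and AT5G17630 was called wherever it was tested. Several settings change only the SE or the set of tested probes and keep the reported estimate (-0.75 for PRK). The direction could not change under those, and both genes were taken up with their lower values known. PRK lost its call as deposited (-0.30), under cyclic loess (-0.60) and with the array number as replicate block (-0.75, adjusted p = 0.0517). With 1 array or column left out, log2 differences ran from -0.85 to -0.60 for PRK and from -2.80 to -2.08 for AT5G17630. The number of list genes called besides the pair was 1 as reported (AT2G04700), 0 under median scaling and 1 as deposited (NTRC, higher). It was 0 to 1 with 1 array or column left out. Without the dimmest 25% it was 0, but AT2G04700 was not tested there and only NTRC remained. Over all probes, 764 were called. There were 1332 as deposited (1250 higher, 82 lower), 1443 with 6 columns as separate samples (644 and 799), 1532 with the replicate number of the columns as replicate block (686 and 846), 840 with the array number as replicate block, and 394 to 750 with 1 array or column left out. Separate columns add degrees of freedom by construction, and other causes were not tested. Deviations of same-numbered prors1 and WT arrays from their group means had correlations of 0.184, 0.080 and 0.231. Those of same-numbered columns ran from 0.083 to 0.261. The reported fit did not pair the groups by number. The running median was added after the data were seen. Neither gene had another probe to try. AT5G17630 lies near the floor of the scale in prors1, which limits its precision.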
